A study of Mus musculus with 10 samples.

Results

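MHC class I antigen presentation was followed through 10 genes, of 12147 tested, in the livers of germ-free (GF) mice. They were chosen by name, by matching Ensembl identifiers to gene symbols, and all 10 were measured. They comprise the class I heavy chains *H2-K1*, *H2-D1*, *H2-M3* and *H2-T24*, the light chain *B2m*, the peptide transporter genes *Tap1* and *Tap2*, and the immunoproteasome subunit genes *Psmb8*, *Psmb9* and *Psmb10*. Total RNA of whole liver was sequenced from 10 C57BL/6 mice, wild type and germ-free in both groups, with 1 library per mouse and 1 experiment. In the GF+MEV group (n = 5), mice received 80 μg of microbiota-derived extracellular vesicles (MEV) in PBS by mouth, 2 doses per week for 3 weeks. In the GF+PBS group (n = 5), mice received PBS alone on the same schedule. MEV are membrane particles shed by gut bacteria, and were purified from cecal content and stool of control mice that carried a gut microbiota. The ages, sexes and caging of the germ-free mice are not given in the sources used here.

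Class I molecules carry short peptides from inside the cell to its surface, where CD8 T cells read them. The peptides come mostly from the proteasome, enter the endoplasmic reticulum through the TAP transporter, and are bound by a heavy chain paired with β2-microglobulin. In immune cells, and in other cells exposed to interferon-γ, 3 catalytic subunits of the standard proteasome are replaced by the immunoproteasome subunits. IRF1 and NLRC5 are well known activators of these genes. Hepatocytes carry little class I on their surface compared with lymphocytes, while Kupffer cells and sinusoidal endothelium carry more.

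All 10 genes were lower on average in GF+MEV livers, by 0.04 to 0.75 on the log2 scale, but *Psmb10* alone passed the test. In a quasi-likelihood test with edgeR, adjusted by the Benjamini-Hochberg method over all 12147 genes, 1 of 10 was lower at an adjusted p under 0.05 and none was higher, and none was higher by DESeq2 or limma-voom either. Of all genes tested, 7.64% passed, made up of 3.52% lower and 4.12% higher, so 1 of 10 is near this background. The median log2 fold change was -0.33 over the 10 genes and -0.0037 over all genes, and 51.0% of all genes had a log2 fold change below 0. Before adjustment, 6 of the 10 had a p under 0.05, all as lower, and so had 2572 of the 12147 genes in either direction. Values below are CPM, the reads on a gene per 1e6 reads of its library after TMM scaling of library sizes, and n = 5 livers per group throughout.

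The libraries held between 15746119 and 20523649 counts on genes. The TMM factor was 0.89 in GF+MEV replicate 2 and between 0.978 and 1.04 in the other 9 libraries. The mean chi-square per gene of count differences was 135 to 176 between GF+MEV replicate 2 and the other GF+MEV livers. It was 8.22 to 21.4 in the other GF+MEV pairs and 6.36 to 25 in the GF+PBS pairs. Distances between libraries were root mean square differences on the log2 scale, over the 300 genes most variable among the GF+MEV livers. Within GF+PBS, the distance was 0.496 between replicates 4 and 5, 0.529 between replicates 1 and 3, and 0.68 to 0.85 in the other pairs. Pairs of GF+MEV livers differed by 0.922 to 1.33. As the genes were chosen by their spread in GF+MEV, this distance cannot compare the 2 groups. When each close pair of GF+PBS livers was summed into 1 sample, *Psmb10* was still the single member that passed (adjusted p = 0.0443). In liver tissue, fewer cells of a type and less RNA per cell cannot be told apart.

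Of the 10 genes, 8 lie within the MHC on chromosome 17 of GRCm38. *Psmb9* (34181987 to 34187764), *Tap1* (34187553 to 34197225), *Psmb8* (34197721 to 34201454) and *Tap2* (34203527 to 34216321) are direct neighbours there. *H2-K1* (33996017 to 34000347) lies to one side of this block, and *H2-D1* (35262730 to 35267499), *H2-T24* (36005695 to 36020560) and *H2-M3* (37270220 to 37274484) lie to the other. *B2m* is on chromosome 2 (122147686 to 122153083), and *Psmb10* is on chromosome 8 (105935735 to 105938444). RefSeq windows around the transcription start, from 250 bases before it to 50 after it on GRCm38.p6, were at hand for 8 of the 10 genes and not for *Tap2* or *H2-T24*.

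The 250 bases before the first annotated start are shown for the abundant heavy chains, for *H2-M3* and *B2m*, for *Tap1*, which faces *Psmb9*, and for *Psmb10*, the member that passed the test. They lie at chr17:34000348-34000597 (minus strand, *H2-K1*), chr17:35262844-35263093 (plus, *H2-D1*), chr17:37269984-37270233 (plus, *H2-M3*), chr2:122147437-122147686 (plus, *B2m*), chr17:34187306-34187555 (plus, *Tap1*) and chr8:105938393-105938642 (minus, *Psmb10*). Capitals mark matches on either strand to 4 motifs. The interferon-stimulated response element type (ISRE) is GAAA, any 2 bases and GAAA, the GAS type, for interferon-γ activated site, is TTCNNNGAA, the κB type is GGGA, any 4 bases and CC, and the X2 or CRE type is TGACG. In *H2-K1*, *H2-D1* and *B2m* the κB-type matches of both strands overlap, 1 base apart. Each strand is printed 5′ to 3′ in the direction of its gene.
H2-K1: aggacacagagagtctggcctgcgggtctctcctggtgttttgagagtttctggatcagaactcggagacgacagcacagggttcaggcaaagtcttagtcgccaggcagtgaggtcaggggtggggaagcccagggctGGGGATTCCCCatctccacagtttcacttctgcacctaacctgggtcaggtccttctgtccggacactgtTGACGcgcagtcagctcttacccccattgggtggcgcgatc
H2-D1: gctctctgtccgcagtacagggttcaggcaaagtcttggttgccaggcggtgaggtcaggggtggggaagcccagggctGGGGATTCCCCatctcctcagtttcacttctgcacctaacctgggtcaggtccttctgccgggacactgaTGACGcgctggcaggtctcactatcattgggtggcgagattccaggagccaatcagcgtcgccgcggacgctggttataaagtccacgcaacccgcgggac
H2-M3: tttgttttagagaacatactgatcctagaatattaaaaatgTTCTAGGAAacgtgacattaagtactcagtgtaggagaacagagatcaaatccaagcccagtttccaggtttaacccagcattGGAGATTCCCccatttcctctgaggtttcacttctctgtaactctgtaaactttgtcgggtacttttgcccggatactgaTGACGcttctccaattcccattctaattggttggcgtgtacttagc
B2m: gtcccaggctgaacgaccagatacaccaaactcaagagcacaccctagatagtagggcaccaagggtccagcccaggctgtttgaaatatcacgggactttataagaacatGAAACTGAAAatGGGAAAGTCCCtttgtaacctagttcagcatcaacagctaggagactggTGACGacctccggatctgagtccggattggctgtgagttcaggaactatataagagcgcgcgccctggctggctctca
Tap1: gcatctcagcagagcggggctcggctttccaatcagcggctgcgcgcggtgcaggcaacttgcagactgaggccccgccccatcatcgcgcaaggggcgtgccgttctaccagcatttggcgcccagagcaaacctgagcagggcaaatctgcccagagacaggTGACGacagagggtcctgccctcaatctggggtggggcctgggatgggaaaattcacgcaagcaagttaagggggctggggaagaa
Psmb10: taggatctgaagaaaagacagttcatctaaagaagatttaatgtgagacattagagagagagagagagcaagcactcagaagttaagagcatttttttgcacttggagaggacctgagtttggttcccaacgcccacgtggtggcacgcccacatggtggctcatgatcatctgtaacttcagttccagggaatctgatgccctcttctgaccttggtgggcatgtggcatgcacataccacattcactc

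The 4 class I chain windows shared 2 of the 4 motifs. *H2-K1* had the κB-type motif at -111 and TGACG at -41, counted from the start with negative values before it, and *H2-D1* had them at -171 and -101. *H2-M3* had its κB-type match at -126 and TGACG at -46, and *B2m* at -127 and -78. The κB type was in 4 of 8 member windows, against 20.7% of 32851 RefSeq promoter windows of the same length. TGACG was in 6 of 8, with *Tap1* and *Psmb9* added, against 20.8% of windows. It was not particular to the members. The standard proteasome genes *Psmb5* (-47) and *Psmb6* (-58 and -9) held TGACG too, and no match to the other motifs. In these exact letters, the ISRE type was in *B2m* alone, at -139, against 3.44% of windows. Looser forms of this site were not searched, so the other windows are not shown to lack one. The GAS type was in *H2-M3* and *Psmb8*, against 8.3% of windows. The *Psmb10* window held none of these letters. A stretch of 47 bases around the κB-type motif was identical in *H2-K1* and *H2-D1*. A run of 11 bases, GTTTCACTTCT, was shared by *H2-K1*, *H2-D1* and *H2-M3*, and was in 0.0578% of all windows. Read on the other strand, this run holds GAA, any 2 bases and GAAA, which is the ISRE type with 1 base fewer. These 3 heavy chain windows thus hold a near form of the ISRE type that the exact letters miss. The *Tap1* and *Psmb9* windows cover the same 275 bases from opposite strands, so their TGACG match is 1 site read from both sides. These are matches of letters, and binding was not measured.

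The classical chains were the most abundant members, and their means were within 0.10 of each other on the log2 scale between groups. Per kilobase of the principal transcript, mean levels in GF+PBS livers were 1330 ± 91.2 CPM (SD) for *B2m*, 1110 ± 68.2 for *H2-K1* and 321 ± 29.4 for *H2-D1*. Next came *Psmb10* at 37.7 ± 5.49, *Psmb9* at 18.2 to 29.5, *Tap1* at 16.5 ± 3.27 and *Psmb8* at 7.13 ± 1.29 CPM per kilobase. The lowest levels were those of *Tap2* at 3.85 ± 0.477, *H2-M3* at 2.60 ± 0.367 and *H2-T24* at 1.64 ± 0.314 CPM per kilobase. Among neighbours in this order, *Psmb9* and *Tap1* overlapped across the GF+PBS livers, and the other neighbours did not. With the length of all annotated exons in place of the principal transcript, *Tap1* and *Psmb9* changed places, and so did *Psmb8* and *Tap2*.

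**Figure D1:**
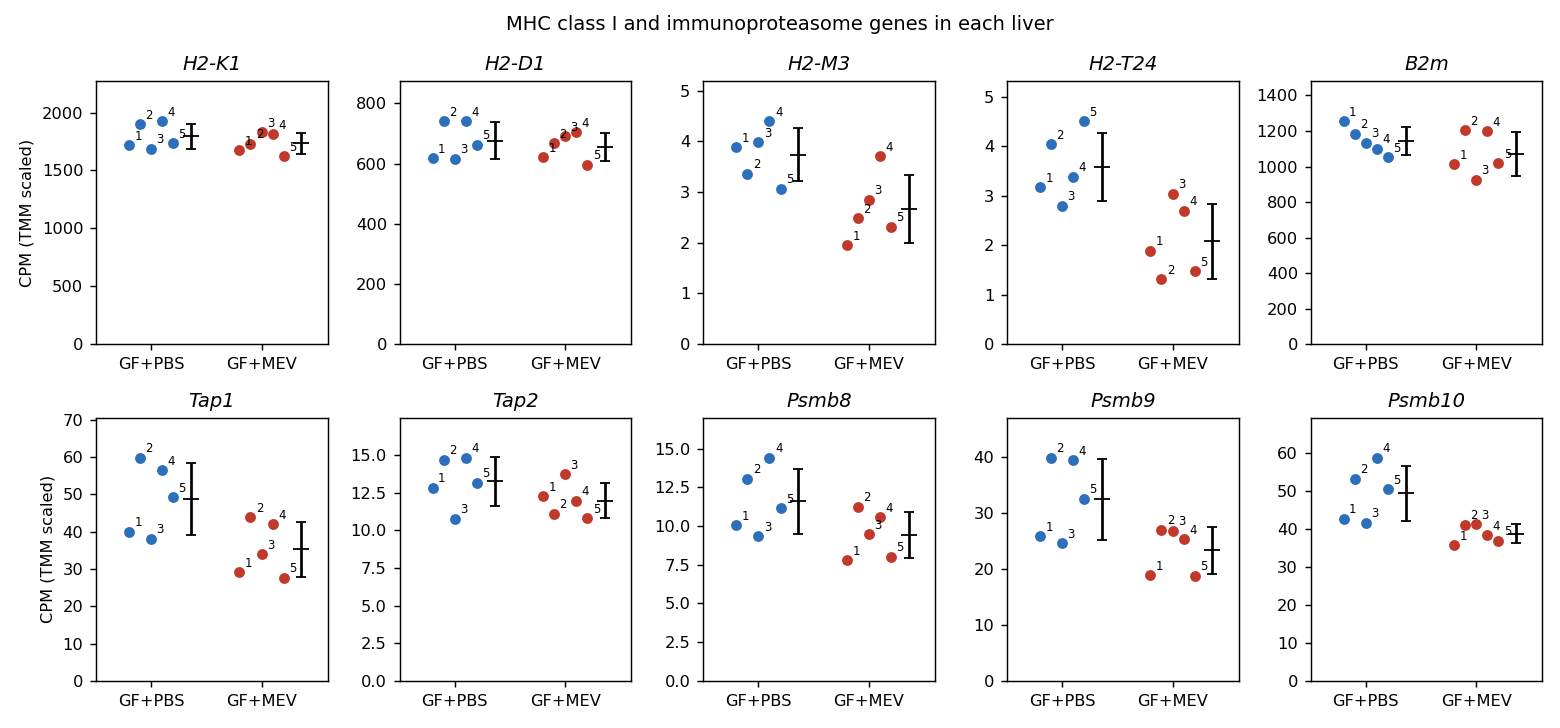
Level of each of the 10 genes in each liver, in TMM-scaled CPM on an axis that starts at 0, with GF+PBS in blue and GF+MEV in red. Small numbers are replicates and the bar beside each group is the mean ± SD of 5 livers; in the *Psmb10* panel every GF+MEV liver (at most 41.3 CPM) is below every GF+PBS liver (at least 41.7 CPM), and in the 9 others the groups overlap.

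*H2-K1* and *H2-D1* encode the classical heavy chains that present peptides to CD8 T cells. *H2-K1* was at 1673, 1730, 1829, 1811 and 1623 CPM in GF+MEV replicates 1 to 5 and at 1720, 1900, 1689, 1925 and 1733 CPM in GF+PBS replicates 1 to 5. The groups overlapped over most of their range. The means were 1733 ± 88.3 CPM and 1793 ± 110 CPM (SD), a log2 difference of -0.05 (edgeR, adjusted p = 0.706), with a limma-voom 95% interval from -0.17 to 0.07. For *H2-D1* the means were 656 ± 45.7 CPM in GF+MEV and 676 ± 61.8 CPM in GF+PBS, a log2 fold change of -0.04 with an interval from -0.19 to 0.11 (edgeR, adjusted p = 0.792). These intervals bound a fall of either gene at 0.19 on the log2 scale. Reads that fit more than 1 gene could be lost or misplaced. Of the 100-base stretches, 0.957% in *H2-K1* transcripts and 3.59% in *H2-D1* transcripts also occur in other genes, and 0% in the other 8 members.

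*B2m*, the light chain that every class I heavy chain needs to reach the surface, was at 1012, 1203, 925, 1198 and 1019 CPM in GF+MEV livers and at 1255, 1185, 1133, 1100 and 1052 CPM in GF+PBS livers. Replicates 2 and 4 of GF+MEV lay inside the GF+PBS range and replicates 1, 3 and 5 lay below it. The means were 1071 ± 123 CPM and 1145 ± 78.4 CPM (SD), a log2 fold change of -0.10 with a 95% interval from -0.26 to 0.06 (edgeR, adjusted p = 0.546).

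The nonclassical heavy chains had the fewest counts of the 10. H2-M3 is known for presenting N-formylated peptides, a hallmark of bacterial proteins. *H2-M3* was at 1.95, 2.48, 2.85, 3.71 and 2.31 CPM in GF+MEV livers and at 3.89, 3.36, 3.99, 4.40 and 3.06 CPM in GF+PBS livers, from 32 to 87 reads per library. GF+MEV replicate 4 lay within the GF+PBS range and the 4 others lay below it. The log2 fold change was -0.48 ± 0.17 (SE) and did not pass (edgeR, adjusted p = 0.118). It passed without GF+MEV replicate 4, at -0.63 (edgeR, adjusted p = 0.0369).

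*H2-T24*, a nonclassical chain of the T region, was at 1.89, 1.31, 3.04, 2.69 and 1.48 CPM in GF+MEV livers and at 3.17, 4.03, 2.80, 3.39 and 4.504 CPM in GF+PBS livers. Only GF+MEV replicate 3 reached into the GF+PBS range. Its log2 fold change of -0.75 ± 0.25 (SE) was the lowest of the 10 and did not pass (edgeR, adjusted p = 0.0584). Without GF+MEV replicate 3 it passed at -0.94 (adjusted p = 0.0265). The libraries held 19 to 75 reads on it, and the 95% interval ran from -1.26 to -0.29.

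TAP1 and TAP2 together form the transporter that carries peptides into the endoplasmic reticulum. *Tap1* was at 29.2, 43.9, 34.0, 41.9 and 27.6 CPM in GF+MEV livers and at 39.98, 59.8, 38.1, 56.5 and 49.2 CPM in GF+PBS livers. GF+MEV replicates 2 and 4 lay above GF+PBS replicates 1 and 3, and no other livers crossed. The means were 35.3 ± 7.35 CPM and 48.7 ± 9.65 CPM (SD), a log2 fold change of -0.47 ± 0.19 (SE) that did not pass (edgeR, adjusted p = 0.0729). It passed without any 1 of GF+MEV replicate 2 and GF+PBS replicates 1 and 3 (adjusted p from 0.0421 to 0.0474). *Tap2* was less apart, at 12.3, 11.1, 13.7, 11.96 and 10.8 CPM in GF+MEV livers and 12.8, 14.7, 10.8, 14.8 and 13.2 CPM in GF+PBS livers. Its log2 fold change was -0.14, with a 95% interval from -0.36 to 0.08 (edgeR, adjusted p = 0.461). The difference between the 2 transporter genes was not tested.

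The immunoproteasome subunits replace the 3 catalytic subunits of the standard core: PSMB8 (LMP7) replaces PSMB5, PSMB9 (LMP2) replaces PSMB6 and PSMB10 (MECL-1) replaces PSMB7. *Psmb10* was at 35.7, 41.2, 41.3, 38.5 and 36.9 CPM in GF+MEV livers and at 42.8, 53.3, 41.7, 58.8 and 50.5 CPM in GF+PBS livers. Every GF+MEV liver was below every GF+PBS liver, the closest being replicate 3 of each group. The means were 38.7 ± 2.50 CPM and 49.4 ± 7.20 CPM (SD), a log2 difference of -0.35 ± 0.10 (SE) (edgeR, adjusted p = 0.0296), or 1.28-fold lower in GF+MEV. *Psmb10* was the single member without overlap between groups, and 7.39% of all genes tested had no overlap, made up of 3.45% lower and 3.94% higher. Its adjusted p was above 0.05 without any 1 of GF+MEV replicates 1, 4 and 5 or GF+PBS replicates 2, 4 and 5, from 0.0535 to 0.0791, with a log2 fold change between -0.35 and -0.28. Without GF+MEV replicate 2, whose TMM factor stood apart, it was -0.37 (edgeR, adjusted p = 0.0408).

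*Psmb9* was at 18.8, 27.0, 26.8, 25.3 and 18.8 CPM in GF+MEV livers and at 25.9, 39.8, 24.6, 39.4 and 32.5 CPM in GF+PBS livers. GF+PBS replicates 1 and 3 fell among the GF+MEV livers, and the other 3 were above all of them. The log2 fold change was -0.47 ± 0.19 (SE) and did not pass (edgeR, adjusted p = 0.0718). It passed without GF+PBS replicate 1 (adjusted p = 0.0406) or replicate 3 (adjusted p = 0.0377). *Psmb8* was at 7.81, 11.2, 9.46, 10.6 and 8.03 CPM in GF+MEV livers and at 10.05, 13.1, 9.34, 14.4 and 11.2 CPM in GF+PBS livers. Here GF+PBS replicates 1, 3 and 5 fell within the GF+MEV range. Its log2 fold change was -0.30 ± 0.15 (SE), with a 95% interval from -0.60 to -0.01 (edgeR, adjusted p = 0.218). Exons of *Tap1* and *Psmb9* overlap by 212 bases on opposite strands, and the strand setting of the counting is not given in the sources used here, so a small part of these 2 counts cannot be told apart. *Psmb8* and *Tap2* each overlap *Gm20496* on the other strand, by 498 and 165 bases.

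**Figure D2:**
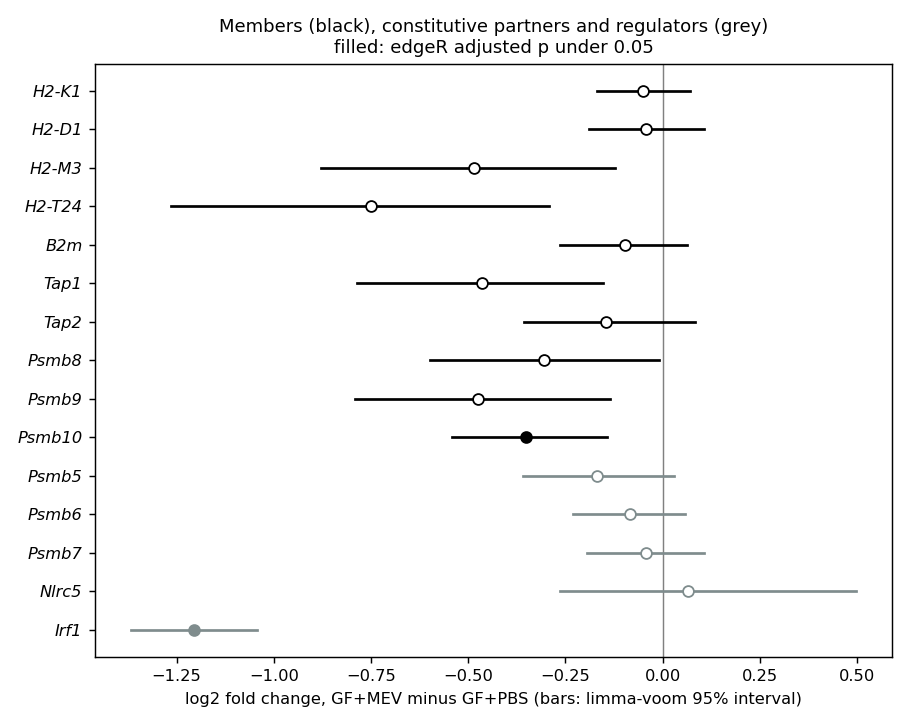
Log2 fold change, GF+MEV minus GF+PBS, of the 10 members (black) and of their constitutive partners and 2 activators (grey), with bars for the limma-voom 95% interval and filled circles where the edgeR adjusted p was under 0.05. *Psmb10* is the single filled black circle at -0.35, while *H2-K1*, *H2-D1* and *B2m* lie close to 0 with short bars and *H2-T24* lies lowest of the black circles with the longest bar.

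The constitutive partners had smaller differences, and none passed. *Psmb5* differed by -0.17 on the log2 scale (edgeR, adjusted p = 0.316), *Psmb6* by -0.08 (adjusted p = 0.533) and *Psmb7* by -0.04 (adjusted p = 0.791). The immunoproteasome subunit's share of each pair was described per liver, with no test, from levels per length. By the length of all annotated exons, *Psmb8* held 5.85% ± 1.10 (SD) of its pair in GF+MEV and 6.42% ± 1.40 in GF+PBS. *Psmb9* held 8.93% ± 1.86 and 11.4% ± 2.59 of its pair, and *Psmb10* held 51.5% ± 3.17 and 56.6% ± 5.12. By the length of the principal transcript, a scale chosen after seeing the data, the shares were 11.4% ± 2.04 and 12.5% ± 2.58 for *Psmb8*, 10.2% ± 2.12 and 12.9% ± 2.88 for *Psmb9*, and 32.0% ± 2.83 and 36.7% ± 4.82 for *Psmb10*. The share thus rests heavily on the length used, while all 3 means were lower in GF+MEV on both scales and all 3 pairs overlapped between groups. GF+PBS replicates 1 and 3 had the lowest *Psmb10* shares of their group, 31.6% and 31.7% on the principal transcript scale, against 37.8% to 41.3% in the other 3.

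**Figure D3:**
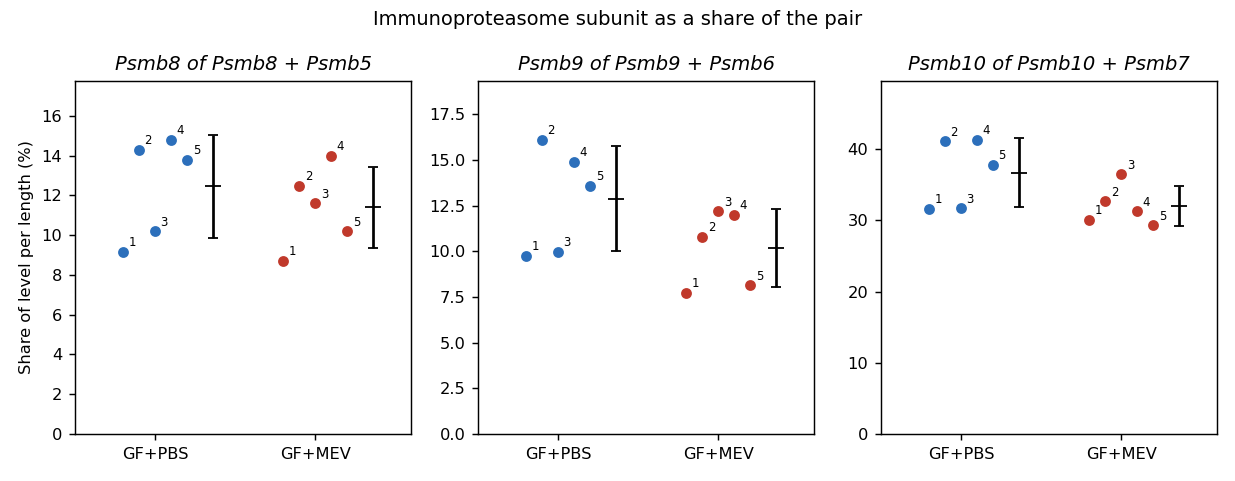
Share of each catalytic pair held by the immunoproteasome subunit in each liver, in percent of the summed level per length of the principal transcript, with GF+PBS in blue, GF+MEV in red and the mean ± SD of 5 livers beside each group. The groups overlap in all 3 panels, and GF+PBS replicates 1 and 3 lie below GF+PBS replicates 2, 4 and 5.

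Within each group, most members put the livers in a similar order. In GF+PBS, replicates 1 and 3 were both below replicates 2, 4 and 5 for 8 of the 10 genes, the exceptions being *H2-M3* and *B2m*, and 18.3% of all genes tested had this order. In GF+MEV, replicates 1 and 5 were both below replicates 2, 3 and 4 for 7 of the 10, the exceptions being *H2-T24*, *B2m* and *Tap2*, and 9.09% of all genes had this order. Both orders were noticed after the values were seen. As the mean deviation of the 10 genes from their average on the log2 scale, GF+PBS replicates 2 and 4 were highest at 0.30 and 0.33, and GF+MEV replicates 1 and 5 were lowest at -0.31 and -0.35. The remaining livers lay between -0.12 and 0.16, and in this middle range GF+PBS replicate 3 at -0.04 fell below GF+MEV replicate 4 at 0.02. *B2m* did not follow the other members: its highest GF+PBS liver was replicate 1, which was among the lowest for most of them.

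**Figure D4:**
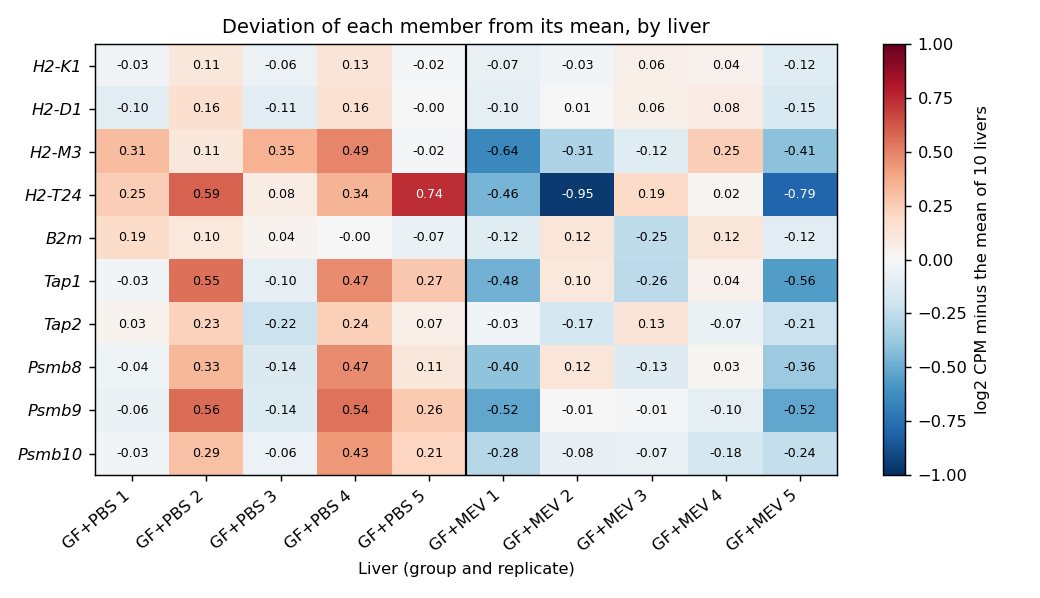
Deviation of each of the 10 genes (rows) from its mean over the 10 livers (columns), in log2 CPM, with red for above and blue for below and the GF+PBS livers left of the line. Columns for GF+PBS replicates 2 and 4 are mostly red and those for GF+MEV replicates 1 and 5 are blue throughout, while the rows for *H2-K1*, *H2-D1* and *B2m* are pale.

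Genes whose profile over livers was most like the members' mean profile, after each group's mean was subtracted, were *Nfkb2*, *Tapbpl*, *Ercc1*, *H2-T22* and *Unc93b1*. Their root mean square difference from that profile was 0.264, 0.332, 0.352, 0.364 and 0.388 SD over 10 livers, beside a median of 1.34 SD over 11834 genes with at least 1 CPM. The members themselves ranged from 0.192 SD (*H2-D1*) to 1.22 SD (*B2m*). Each member is part of the mean profile, which lowers its own difference, so these values are no test of likeness among the members.

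The neighbouring steps of the pathway were compared through lists of named genes, which were chosen with earlier results of these data known. Over all genes tested, 3.52% passed as lower and 4.12% as higher. Of the other class I heavy chains, 13 of 23 were tested, 2 passed as lower and none as higher, with a median of -0.13. *H2-K2*, a relative of *H2-K1* in the same multigene family, was at 9.21, 7.59, 7.77, 5.73 and 7.71 CPM in GF+MEV livers. In GF+PBS livers it was at 9.495, 14.9, 8.81, 14.1 and 13.2 CPM, a log2 difference of -0.67 (edgeR, adjusted p = 0.0180). It did not pass without GF+PBS replicate 4 (adjusted p = 0.0532). How much sequence *H2-K2* shares with other genes was not counted, so how certain its count is was not measured. *Cd1d1*, which presents lipids to NKT cells, was at 230 to 246 CPM in GF+MEV and at 266 to 299 CPM in GF+PBS livers without overlap, or -0.23 on the log2 scale (edgeR, adjusted p = 0.0129). Of 13 genes for peptide loading and trimming, *Tapbpl*, which edits bound peptides, passed as lower at -0.29 (edgeR, adjusted p = 0.0496), and the list's median was 0.05. This call held in 9 of 19 alternative fits.

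The standard proteasome showed little difference. All 14 constitutive core subunit genes had a log2 fold change below 0, between -0.17 and -0.04 with a median of -0.07, and all 14 stayed below 0 under each of the other normalizations. Over all genes tested, 51.0% were below 0. None of the 14 passed edgeR, DESeq2 or limma-voom, and none had an unadjusted p under 0.05. Without GF+MEV replicate 3 or without GF+PBS replicate 1, 13 of the 14 were below 0. Of 24 genes of the activators and the 19S cap, none passed by edgeR, DESeq2 or limma-voom and 1 had an unadjusted p under 0.05, with a median of -0.03. The medians of both lists are nearer to that of all genes than the members' median of -0.33 is, and the difference between lists was not tested.

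**Figure D5:**
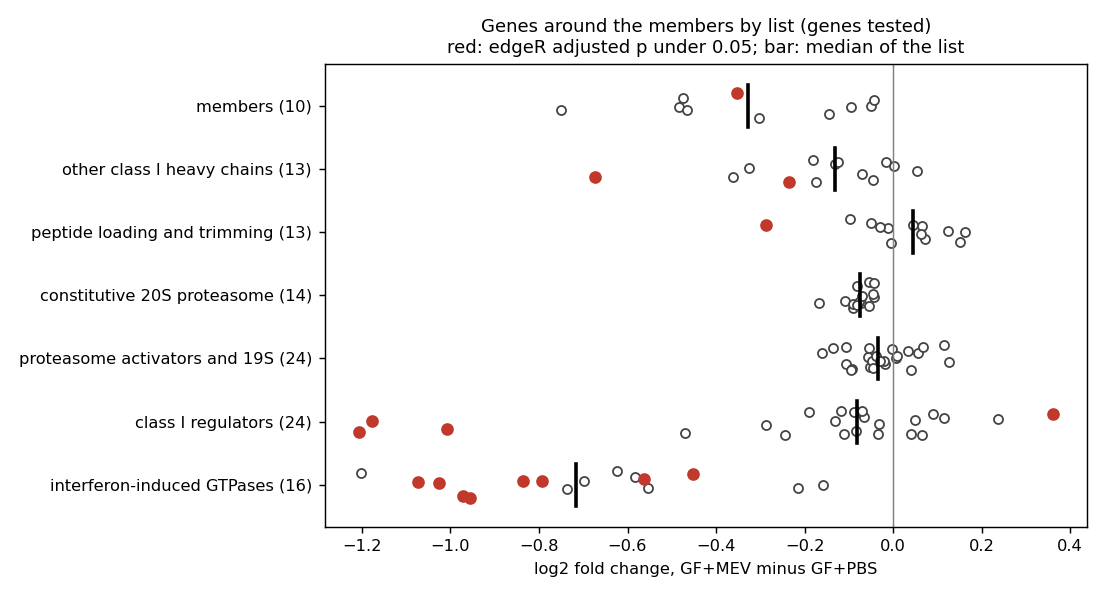
Log2 fold change, GF+MEV minus GF+PBS, of each tested gene in the 7 pathway lists, with the number of genes in brackets, red points for an edgeR adjusted p under 0.05 and a black bar for the median of the list. The 16 interferon-induced GTPases all lie below 0 around a median of -0.72, while both standard proteasome lists sit close to 0.

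Of 2 transcriptional activators of class I genes, *Irf1* fell and *Nlrc5* did not pass. IRF1 is an interferon-induced factor that binds ISRE-type sites. *Irf1* was at 16.5, 17.5, 16.0, 15.8 and 15.1 CPM in GF+MEV livers and at 36.7, 41.1, 33.4, 39.6 and 35.7 CPM in GF+PBS livers, with no overlap. Its log2 fold change was -1.21 ± 0.06 (SE) (edgeR, adjusted p = 9.3e-08). *Nlrc5*, the class I transactivator, was at 28.7, 37.4, 34.6, 32.2 and 29.0 CPM in GF+MEV livers and at 18.4, 39.96, 23.9, 34.6 and 38.0 CPM in GF+PBS livers. The GF+MEV livers all lay inside the GF+PBS range, in which replicates 1 and 3 were lowest, as for 8 of the members. The log2 fold change of *Nlrc5* was 0.07 with a 95% interval from -0.26 to 0.50 (edgeR, adjusted p = 0.880).

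In the whole regulator list, 24 of 25 genes were tested, 1 passed as higher and 3 as lower, with a median of -0.08. Beside *Irf1*, the genes that passed as lower were *Socs3*, a feedback inhibitor of cytokine signalling, at -1.18 (edgeR, adjusted p = 0.000275), and *Ciita*, the class II transactivator, at -1.01 (edgeR, adjusted p = 0.0390). *Ciita* passed in 10 of 19 alternative fits, and the libraries held 12 to 68 reads on it. *Irf2*, which binds the same kind of site as IRF1, passed as higher at 0.36 (edgeR, adjusted p = 0.0134), with 51.1 to 60.1 CPM in GF+MEV livers and 37.0 to 48.4 CPM in GF+PBS livers.

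Interferon-induced GTPases, which attack vacuoles that hold microbes and respond to interferon-γ like the immunoproteasome genes, formed the list with the lowest median. Of 16 tested, all were below 0 under every normalization and all leave-one-out fits, 8 passed as lower and none as higher, with a median of -0.72. Over all genes tested, 51.0% were below 0 and 3.52% passed as lower. This list too was chosen with earlier results of these data known. *Gbp6* fell by 0.96, *Gbp4* by 0.84 and *Igtp* by 0.97 on the log2 scale (edgeR, adjusted p = 0.00597, 0.0127 and 0.0316). *Irgm2* fell by 0.79, *Tgtp2* by 1.03 and *Ifi47* by 0.56 (edgeR, adjusted p = 0.0185, 0.0303 and 0.0312). *Igtp* shared the order of the members within GF+PBS, at 35.8 and 34.7 CPM in replicates 1 and 3 and at 89.6, 75.3 and 69.4 CPM in replicates 2, 4 and 5. Several of these genes are near-identical copies or overlap each other, so their single values are less certain. The count that passed ranged from 2 to 11 when 1 liver was left out.

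Markers of cell types that a whole liver holds are given beside these results, and their part in them was not tested. Over all genes tested, 3.52% passed as lower and 4.12% as higher. B cell markers, of cells rich in class I, passed as lower in 2 of 8 genes, *Cd79a* (-0.87) and *Cd79b* (-0.76), calls that held in 19 and 11 of 19 alternative fits, and their summed level was 14.3 to 24.4 CPM in GF+MEV and 22.7 to 31.6 CPM in GF+PBS livers. Kupffer cell and macrophage markers passed in 0 of 13 genes by edgeR, DESeq2 and limma-voom, with 1 unadjusted p under 0.05. Their sum was 346 to 627 CPM (median 360) in GF+MEV and 389 to 548 CPM (median 489) in GF+PBS livers. The highest GF+MEV sum was that of replicate 4. Without GF+MEV replicate 4, 4 of the 13 passed as lower. Endothelial markers passed in 1 of 12 genes as higher (*Lyve1*, 0.84) and in 1 as lower (*Clec4g*, -0.48), calls that held in 11 and 15 of 19 alternative fits, with a sum of 230 to 377 CPM and 279 to 361 CPM. Of 18 T and NK cell markers, *Ptprc* and *Ccl5* were tested, and neither passed by any of the 3 tools or had an unadjusted p under 0.05. The 16 others, *Cd3e* and *Cd8a* among them, were not among the genes analysed here. Hepatocyte markers made up 110000 to 129000 CPM in GF+MEV and 112000 to 128000 CPM in GF+PBS livers, and 1 of 9 passed as higher (*Hnf4a*, 0.45).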

How the data were processed

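Reads were mapped by the authors with STAR 2.7.3a to GRCm38 and assigned to genes with HTSeq. They state a filter at 20 counts across all samples, and the deposited values are raw counts for each Ensembl gene. Of the 12148 genes in the table, 11725 had at least 10 counts in every library. Absence from the table therefore does not show that a gene had under 20 counts in total. Per the labels, the library kit was NEBNext Ultra RNA. The strand setting and annotation release are not given in the sources used here. In the table, 5 columns of values matched no described sample and were not used.

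Genes with at least 20 counts over the 10 libraries were tested (12147 of 12148) with edgeR 4.0.16 in R 4.3.3, with TMM, a quasi-likelihood fit on treatment alone and Benjamini-Hochberg adjustment at 0.05, after tests on simulated data. Symbols came from GENCODE for GRCm38. Log2 fold changes are GF+MEV minus GF+PBS. The SE was taken from log2 CPM (prior count 2), and 95% intervals came from limma-voom (limma 3.58.1). DESeq2 1.42.0, other normalizations and filters, a replicate block and leave-one-out fits were alternatives. The genes and lists were chosen with earlier results of these data known. Genes named outside the 10 were the constitutive partners, *Nlrc5* and *Irf1*, up to 6 genes per list that passed, and the 5 most alike profiles. A further gene that the rule names is not reported here. The p-values measure the spread between 5 mice per group in 1 experiment. As caging is not given, whether the mice of a group were independent is not known, and treatment cannot be told apart from housing.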

Additional observations from a re-analysis of the deposited data

Results flagged for a closer look

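Of 72 sets of 5 livers checked for a liver far from the others, 1 stood out, where chance gives about 1 in 20, or 3.6. In GF+PBS replicate 2, *Socs3* was at 13.6 CPM, while the 4 other GF+PBS livers lay between 24.4 and 26.4 CPM. The GF+MEV livers lay between 8.55 and 11.7 CPM, so the groups stayed apart. None of the 10 class I and immunoproteasome genes had such a liver in either group.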

How the results depend on the processing

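All 10 members stayed below 0 under all 19 alternatives, and none passed as higher in any. The number that passed as lower moved from 1 to 4 with upper-quartile normalization, with library size only and with DESeq2 (*Tap1*, *Psmb9*, *Psmb10* and *H2-T24* each time), and from 0 to 3 when 1 liver was left out. It was 0 without GF+MEV replicate 1 or 5 or without GF+PBS replicate 2, 4 or 5, 3 without GF+PBS replicate 1 or 3, and 2 without GF+MEV replicate 2 or 3. *Psmb10* passed in 13 of the 19 (adjusted p from 0.00818 to 0.0791), *Tap1* in 7 (0.0116 to 0.175), *Psmb9* in 6 (0.0279 to 0.183), *H2-T24* in 4 (0.0189 to 0.123), *H2-M3* in 1 (0.0369 to 0.259) and the other 5 members in none. Of the other class I heavy chains, 4 passed as lower with upper-quartile normalization or library size only, and 1 to 3 with 1 liver left out. The *Tapbpl* call for peptide loading and trimming was lost (0 genes) with no filter, with limma-voom, with the close GF+PBS pairs summed and in leave-one-out fits (0 to 1). With library size only, 1 gene of the activators and the 19S cap passed as lower. Regulators that passed as higher were 2 with median-of-ratios size factors and with DESeq2, 0 with library size only and with summed pairs, and 1 to 2 in leave-one-out fits. The GTPases that passed as lower were 4 with summed pairs and 2 to 11 in leave-one-out fits. Near 0, *Psmb7* ranged from -0.0791 to 0.0041 with 1 liver left out, above 0 without GF+MEV replicate 3. *Nlrc5* was -0.0134 with library size only and -0.0742 to 0.1745 with 1 liver left out, below 0 without GF+PBS replicate 1 or 3 (-0.0145). The cause of these moves was not tested.

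Over all genes, 500 were higher and 428 lower in the fit reported, 428 and 612 with upper-quartile normalization, 332 and 691 with library size only, and 352 and 209 with summed pairs. With the replicate numbers as a block, 3 members passed as lower (*Tap1*, *Psmb9* and *Psmb10*) and 1 of the other class I heavy chains did. Deviations of same-numbered livers correlated at 0.166, -0.0844, -0.0522, -0.188 and 0.0586 for replicates 1 to 5, and replicates 1 and 5 alone matched best with their own number, so the livers share only a number and the pairing was not used. Depth limits *H2-T24* and *H2-M3*, with as few as 19 and 32 reads in a library. It also limits *Ciita*, *Cd79a*, *Cd79b* and *Tgtp2*, with as few as 12, 14, 15 and 21 reads.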

Other observations

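*Unc93b1*, which escorts nucleic acid sensing receptors to endosomes, and *Nfkb2*, a subunit of NF-κB, had profiles over livers that were closer to the members' mean profile than the profile of *Tap1* was, at 0.388 and 0.264 SD against 0.399 SD. Neither passed the test between groups. *Unc93b1* was at 49.8 CPM on average in GF+MEV and 57.2 CPM in GF+PBS livers (edgeR, adjusted p = 0.162), and *Nfkb2* was at 7.85 and 8.59 CPM (edgeR, adjusted p = 0.610). *H2-T22*, a nonclassical heavy chain outside the 10, had no overlap between groups, at 104 to 116 CPM in GF+MEV and 118 to 134 CPM in GF+PBS livers, but did not pass (edgeR, adjusted p = 0.0936).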
